A study of Mus musculus with 2 samples.

Results

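The integrin genes of leukocytes were followed in mouse acute myeloid leukaemia cells sorted from bone marrow for surface Mac1 and KIT, which the labels call leukaemia-initiating cells. The 10 genes were chosen by symbol (Itgam, Itgal, Itgax, Itgb2, Itga4, Itgb7, Itgb1, Itga5, Itga6 and Itgav), and all 10 were found among the 46095 entries of the count table. There were 2 RNA-seq libraries, 1 labelled P2X1-KO, with P2x1-KO as its genotype, and 1 labelled wild type (WT), both of strain C57BL/6 at an age of 8 weeks. The protocol text calls the same cells P2X1-KD and P2X1-Scr, and the labels do not settle whether the receptor was knocked out or knocked down. The sources used here do not say how the leukaemia was induced, or from how many animals each library came. With 1 library per group no difference has a replicate check and no test was possible. Intervals cover counting error only.

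Integrins are adhesion receptors made of an α and a β chain, and the partner chain fixes which ligand is bound. The β2 integrins of leukocytes pair Itgb2 (CD18) with Itgal (LFA-1), Itgam (Mac1, complement receptor 3) or Itgax (CD11c), and they bind ICAMs, complement fragments and fibrinogen. Itga4 pairs with Itgb1 to make VLA-4, the receptor for VCAM1 and fibronectin that holds haematopoietic progenitors and leukaemia cells in the marrow, or with Itgb7 to make the gut homing receptor for MADCAM1. Itga5 and Itga6 join Itgb1 in receptors for fibronectin and laminin, and Itgav pairs with several β chains in receptors for vitronectin, osteopontin and latent TGF-β.

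The P2X1-KO-labelled library held 9447894 counts and the WT-labelled library 14658620. P2rx1 itself, the gene of the P2X1 channel, had 45 counts in the P2X1-KO-labelled library and 27 in the WT-labelled library, so the targeted transcript was not lower under the knockout label. Every direction below is a difference between 2 labelled libraries. Kit, the other sorting marker beside Itgam, was present at 19.9 CPM (counts scaled to a common library size) in the P2X1-KO-labelled library and 13.3 CPM in the WT-labelled library. The scaling is edgeR's trimmed mean of M values, TMM. Of 11 neutrophil markers and 12 monocyte and macrophage markers, Mrc1 alone was at 0 in the P2X1-KO-labelled library and none in the WT-labelled library.

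Integrin transcripts were together more abundant in the P2X1-KO-labelled library. The 10 genes summed to 2369 CPM there, against 1181 CPM in the WT-labelled library, a ratio of 2.01 (95% interval 1.97 to 2.05). This ratio rests on TMM. As shares of all counts, without TMM, they took 0.223% of the P2X1-KO-labelled library and 0.126% of the WT-labelled library, under 2-fold apart. All 10 genes passed the level of at least 1 CPM on average that was set for counting differences. Of these, 6 were at least 2-fold higher in the P2X1-KO-labelled library (Itgal, Itgax, Itgb2, Itga4, Itgb7 and Itga6), while 15.5% of all 13382 genes at that level were. None was at least 2-fold lower, against 14.0% of all genes. The whole counting interval lay above 2-fold for the same 6, against 10.2% of all genes, and wholly beyond 2-fold lower for 0, against 7.75%. The interval lay above 1 for 8 members, against 34.8% of all genes, and below 1 for 2, against 40.3% (Itgav, and Itgb1, whose ratio turned to 1.05 after a correction for exon length and GC content). The median log2 difference, log2(CPM + 0.5) in the P2X1-KO-labelled library minus the WT-labelled library, was 1.16 over the integrins and -0.06 over all genes.

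That count depended on scaling between the libraries. Scaled by total counts, 4 integrins were at least 2-fold higher (Itgax, Itgb2, Itgb7 and Itga6), against 12.7% of all genes, and 2 had their whole interval above 2-fold (Itgb2 and Itgb7), against 8.14%. Itgav alone was at least 2-fold lower, against 18.4% of all genes. Total-count scaling moved the median of all genes to -0.23. Among all genes at least 2-fold apart, it gave 40.9% higher and 59.1% lower, where TMM gave 52.6% higher and 47.4% lower.

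**Figure D1:**
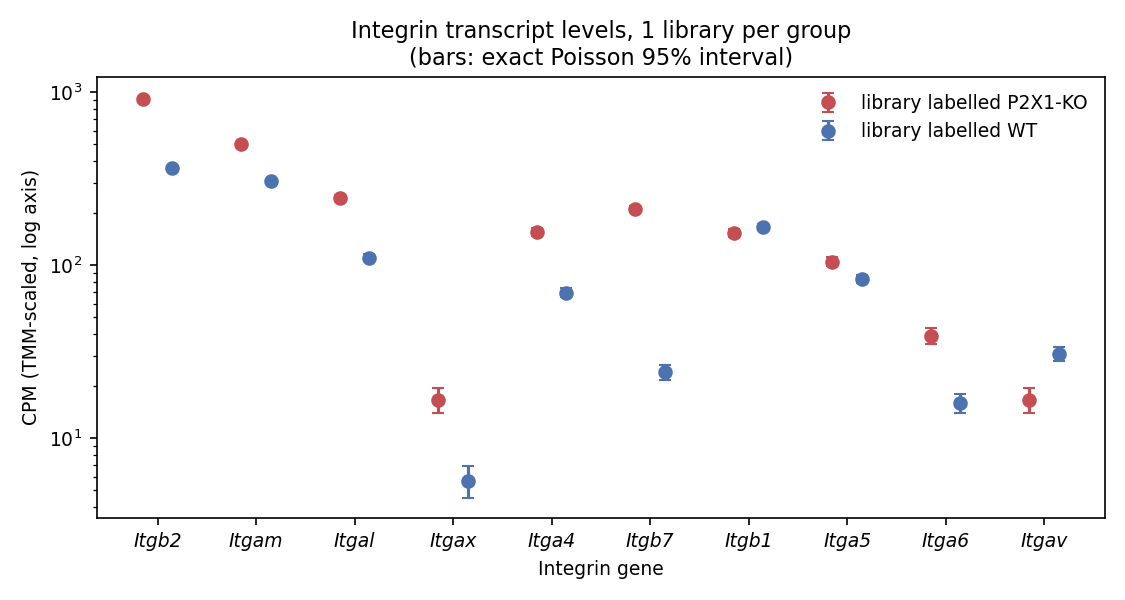
Level of each integrin in TMM-scaled CPM (log axis) in the P2X1-KO-labelled library (red, left of each pair) and the WT-labelled library (blue, right), with exact Poisson 95% intervals as bars. Itgb7 shows the widest gap of the 10, at 212 CPM in the P2X1-KO-labelled library and 24.1 CPM in the WT-labelled library, while Itgb1 and Itgav are lower in red; Itgb1 turned to a ratio of 1.05 after a length and GC correction.

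The β2 family held the most abundant integrin transcripts in both libraries. Itgb2, the chain shared by all β2 integrins, had 8178 counts or 921 CPM in the P2X1-KO-labelled library, against 5726 counts or 367 CPM in the WT-labelled library. This was 2.51-fold higher in the P2X1-KO-labelled library (2.42 to 2.59). Itgb2 lies on chromosome 10 from 77530252 to 77565708 (mm10, plus strand). Itgam, the Mac1 chain for which the cells were sorted, had 4481 counts or 504 CPM in the P2X1-KO-labelled library and 4781 counts or 307 CPM in the WT-labelled library. Its ratio of 1.65 (1.58 to 1.71) was under 2-fold, and 21.6% of all genes at the counting level had a higher ratio. The cells were gated on Mac1, so the level of Itgam is not independent of the sort.

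Itgal, the α chain of LFA-1, had 2183 counts or 246 CPM in the P2X1-KO-labelled library, against 1724 counts or 111 CPM in the WT-labelled library, 2.22-fold higher (2.09 to 2.37). Itgax, the CD11c chain of dendritic cells and some macrophages, was the least abundant of these 4 members of the family. It had 147 counts or 16.5 CPM in the P2X1-KO-labelled library and 88 counts or 5.64 CPM in the WT-labelled library, 2.93-fold higher with a wide interval (2.24 to 3.86). Itgam (128062640 to 128118491) and Itgax (128129547 to 128150657) are neighbours on the plus strand of chromosome 7, where Itgal also lies (127296260 to 127335138). Itgam shares 3450 exon bases with the gene model Gm49368 on the same strand. No entry under that name was counted, so a division of reads between the models cannot be seen.

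Ratios of chains within a library need no scaling between libraries, though they can still move with exon length and GC content. There were 0.548 Itgam counts per Itgb2 count in the P2X1-KO-labelled library and 0.835 in the WT-labelled library. The quotient of these ratios was 0.656 (exact conditional 95% interval 0.622 to 0.692), so Itgam was lower relative to its partner in the P2X1-KO-labelled library although higher in CPM; the length and GC correction gave 0.739. Itgal relative to Itgb2 had a quotient of 0.887 (0.825 to 0.953), which turned to 1.03 after that correction, so no direction is given. For Itgax the interval of 0.890 to 1.54 around 1.17 included 1. Set against Itgam, Itgal was 1.35 times as high in the P2X1-KO-labelled library as in the WT-labelled library (1.25 to 1.46) and Itgax 1.78 times (1.35 to 2.36).

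Among counts of the 4 α chains that pair with Itgb2, Itgam took 65.8% in the P2X1-KO-labelled library (exact 95% interval 64.6 to 66.9) and 71.9% in the WT-labelled library (70.8 to 72.9). Itgal took 32.0% (30.9 to 33.2) in the P2X1-KO-labelled library and 25.9% (24.9 to 27.0) in the WT-labelled library. Itgam was the leading α chain in each library, with the larger Itgal share in the P2X1-KO-labelled library. Itgad, the remaining α chain and a neighbour of Itgax, had 2 counts in the P2X1-KO-labelled library and 61 in the WT-labelled library, a ratio of 0.058 (0.0068 to 0.217). It was the sole β2 α chain that was lower in the P2X1-KO-labelled library.

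The widest difference among the 10 members was that of Itgb7. It had 1881 counts or 212 CPM in the P2X1-KO-labelled library, against 376 counts or 24.1 CPM in the WT-labelled library. The ratio of 8.78 (7.86 to 9.84) was exceeded by 2.74% of all genes at the counting level. It ran from 7.66 to 9.30 over the 4 other scalings and the length and GC correction, always above 2-fold. Itgb7 is annotated on the minus strand of chromosome 15 (102215995 to 102231944).

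Itga4, the α chain that pairs with Itgb7 or Itgb1, had 1381 counts or 155 CPM in the P2X1-KO-labelled library and 1079 counts or 69.2 CPM in the WT-labelled library, 2.25-fold higher (2.07 to 2.44). Its locus is on the plus strand of chromosome 2 (79255426 to 79333123). It shares 1124 exon bases with Cerkl on the opposite strand, and no strand setting is given, so reads of the pair could be mixed. Cerkl had 51 counts in the P2X1-KO-labelled library and 79 in the WT-labelled library, far below Itga4. Itgb1, the common β1 chain, had 1362 counts or 153 CPM in the P2X1-KO-labelled library, against 2609 counts or 167 CPM in the WT-labelled library. Its ratio of 0.916 (0.858 to 0.979) turned to 1.05 after a correction for exon length and GC content, so no direction is given for Itgb1.

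The balance of the β partners of Itga4 was inverted between the libraries. There were 1.38 Itgb7 counts per Itgb1 count in the P2X1-KO-labelled library and 0.144 in the WT-labelled library, a quotient of 9.58 (8.41 to 10.9). Per kilobase of merged exons these ratios were 2.03 in the P2X1-KO-labelled library and 0.212 in the WT-labelled library, so Itgb7 was the more abundant transcript in the P2X1-KO-labelled library and Itgb1 the more abundant in the WT-labelled library. Itga4 was higher against Itgb1 in the P2X1-KO-labelled library, with a quotient of 2.45 (2.21 to 2.72), and lower against Itgb7, with a quotient of 0.256 (0.223 to 0.294), or 0.385 after the length and GC correction. Itgae, the other α partner of Itgb7, and Madcam1, the gut ligand, had 0 counts in both libraries. A count of 0 allows up to 3 counts, or 0.338 CPM in the P2X1-KO-labelled library and 0.192 CPM in the WT-labelled library.

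Over the 9 β chain genes counted, Itgb7 took 14.9% of β chain counts in the P2X1-KO-labelled library (14.3 to 15.5) and 3.59% in the WT-labelled library (3.24 to 3.96). Itgb1 took 10.8% (10.2 to 11.3) in the P2X1-KO-labelled library and 24.9% (24.1 to 25.7) in the WT-labelled library. Itgb2 was the leading β chain of each, at 64.7% (63.9 to 65.6) in the P2X1-KO-labelled library and 54.7% (53.7 to 55.6) in the WT-labelled library.

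**Figure D2:**
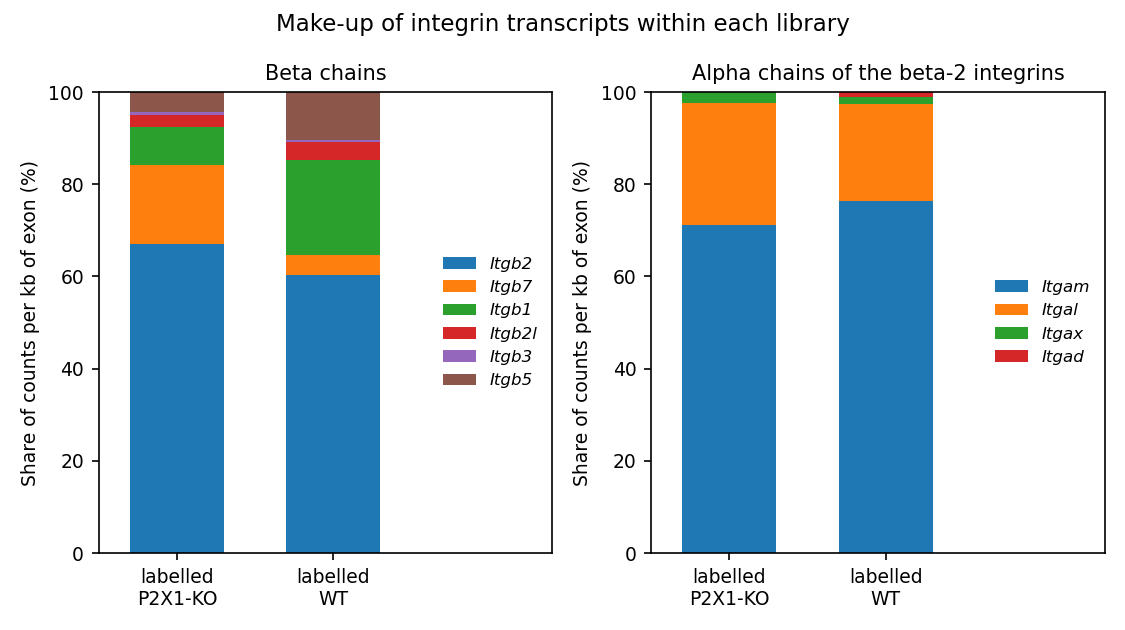
Share of each chain in counts per kilobase of merged exons (%), for β chains (left panel) and for α chains that pair with Itgb2 (right panel), in the P2X1-KO-labelled library (left bar) and the WT-labelled library (right bar); chains under 0.5% in sum are not drawn. Itgb7 fills 17.0% of the β chain bar in the P2X1-KO-labelled library and 4.37% in the WT-labelled library, and Itgb1 fills 8.36% in the P2X1-KO-labelled library and 20.6% in the WT-labelled library.

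The α chains that depend on Itgb1 differed in the size of their ratios. Itga5, the α chain of the classical fibronectin receptor, had 934 counts or 105 CPM in the P2X1-KO-labelled library and 1305 counts or 83.7 CPM in the WT-labelled library, a ratio of 1.26 (1.15 to 1.37). Itga6, a laminin receptor chain found on haematopoietic and other stem cells, had 348 counts or 39.2 CPM in the P2X1-KO-labelled library and 249 counts or 16.0 CPM in the WT-labelled library, 2.45-fold higher (2.08 to 2.90). Per Itgb1 count, Itga5 was 1.37 times as high in the P2X1-KO-labelled library as in the WT-labelled library (1.23 to 1.53) and Itga6 2.68 times (2.24 to 3.20). Itga5 lies on chromosome 15 (103344286 to 103366763, minus strand) and Itga6 on chromosome 2 (71745616 to 71858416, plus strand).

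Itgav was lower in the P2X1-KO-labelled library under the 5 scalings tried and the length and GC correction. It had 147 counts or 16.5 CPM there, against 479 counts or 30.7 CPM in the WT-labelled library, 1.86-fold lower (1.54 to 2.25). The correction for exon length and GC content brought its ratio to 0.772; Itgav has 10744 exon bases and a GC content of 43.5%. Relative to Itgb1, its quotient was 0.588 (0.480 to 0.717). Itgav, on the plus strand of chromosome 2 (83724397 to 83806916), shares 634 exon bases with the gene model Gm13684 on the opposite strand. Of its other β partners, Itgb5 was close between the libraries, at 68.1 CPM in the P2X1-KO-labelled library and 72.9 CPM in the WT-labelled library (ratio 0.935, 0.846 to 1.03). Itgb3 had 18.0 CPM in the P2X1-KO-labelled library and 5.20 CPM in the WT-labelled library, 3.47-fold higher (2.64 to 4.59), and Itgb6 and Itgb8 had 0 counts in both.

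**Figure D3:**
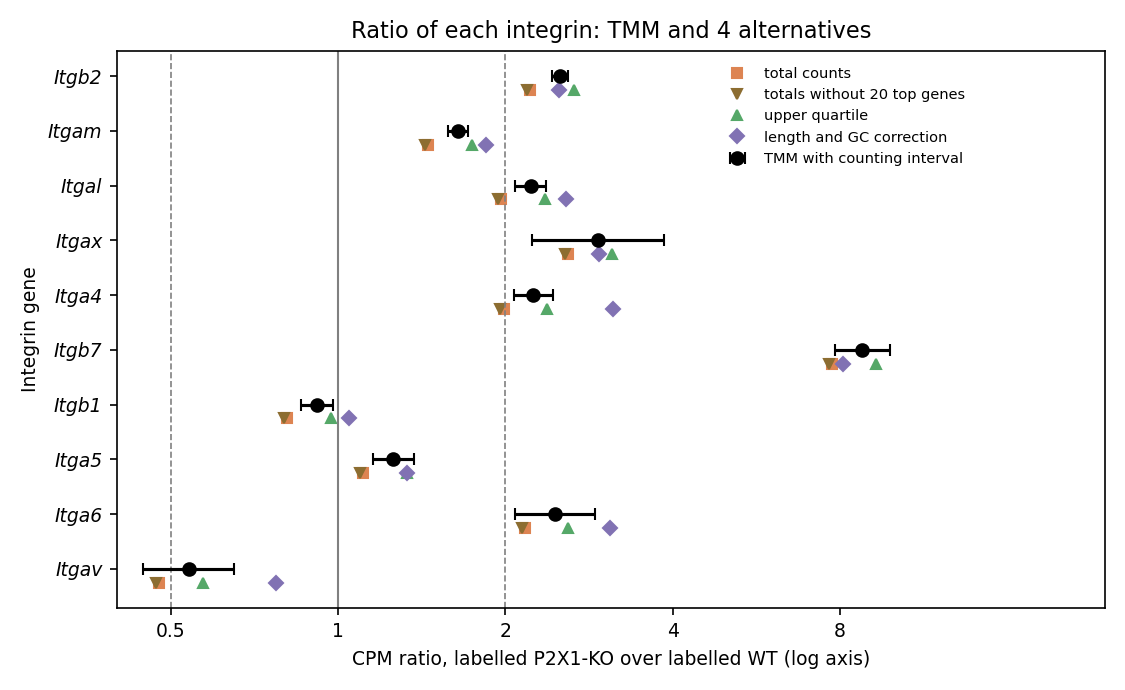
CPM ratio of each integrin, labelled P2X1-KO over labelled WT (log axis), scaled by TMM with its exact counting interval (black), and by the 4 alternatives named in the key (coloured symbols); dashed lines mark 2-fold and the solid line a ratio of 1. Itgb7 stays between 7.66 and 9.30, Itgal and Itga4 cross the 2-fold line with both scalings by totals, and Itgb1 crosses 1 with the length and GC correction.

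Levels of different genes were compared per kilobase of merged exons. In the P2X1-KO-labelled library the order was Itgb2 (302 CPM per kb), Itgam (100.4), Itgb7 (76.4), Itgb1 (37.6), Itgal (37.4), Itga5 (21.3), Itga4 (11.1), Itga6 (4.34), Itgax (3.45) and Itgav (1.54). In the WT-labelled library it was Itgb2 (120.3 CPM per kb), Itgam (61.0), Itgb1 (41.0), Itga5 (17.0), Itgal (16.8), Itgb7 (8.71), Itga4 (4.95), Itgav (2.86), Itga6 (1.77) and Itgax (1.18). Itgb7 stood at rank 3 in the P2X1-KO-labelled library and at rank 6 in the WT-labelled library. The neighbours Itgb1 and Itgal in the P2X1-KO-labelled library did not differ beyond counting error, and the same held for Itga5 and Itgal in the WT-labelled library. Both of those pairs changed places when the longest transcript replaced the merged exons. Among detected genes of known exon length, 98.4% lay below Itgb2 in the P2X1-KO-labelled library and 97.9% in the WT-labelled library. For Itgax that share was 43.5% in the P2X1-KO-labelled library and 36.5% in the WT-labelled library, and for Itgb7 it was 94.4% in the P2X1-KO-labelled library and 67.5% in the WT-labelled library.

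**Figure D4:**
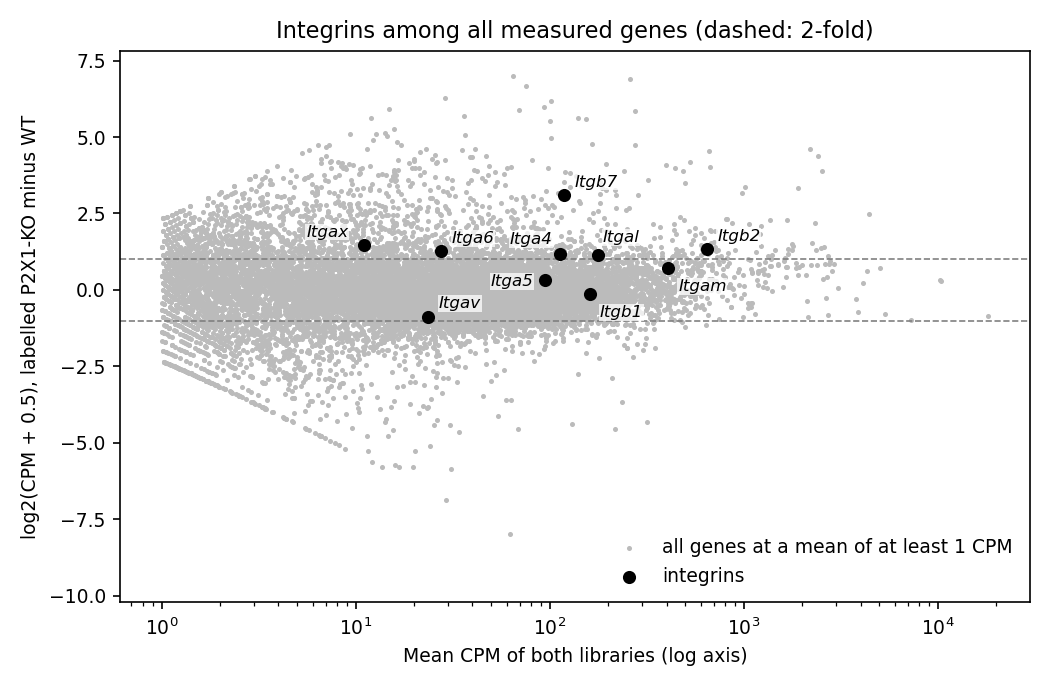
Difference in log2(CPM + 0.5), labelled P2X1-KO minus labelled WT, against mean CPM (log axis) for all 13382 genes at a mean of at least 1 CPM (grey) and the 10 integrins (black); dashed lines mark 2-fold. Itgb7 stands at 3.11, Itgav lowest at -0.87, and Itgb1, at -0.13, changes sign when corrected for length and GC.

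Upstream sequence is shown for Itgb7 and Itgav, the members farthest from no change in each direction, and for Itgam, the sorting marker. The windows are the 250 bases before the RefSeq start in GRCm38.p6, given 5′ to 3′ along the gene's strand. Capitals mark matches, on either strand, to GAGGAA (a core bound by PU.1 and other ETS factors), TGTGGT (a RUNX core) or GGGCGG (a GC box of SP1); no matches overlapped. The windows are chr15:102231936-102232185 (minus strand) for Itgb7, chr2:83724147-83724396 (plus) for Itgav and chr7:128062390-128062639 (plus) for Itgam.
Itgb7: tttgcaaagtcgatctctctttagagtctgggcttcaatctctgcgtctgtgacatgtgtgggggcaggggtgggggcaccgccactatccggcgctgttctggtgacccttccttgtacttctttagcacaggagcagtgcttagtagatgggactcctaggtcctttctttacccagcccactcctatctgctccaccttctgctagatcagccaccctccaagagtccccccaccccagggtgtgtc
Itgav: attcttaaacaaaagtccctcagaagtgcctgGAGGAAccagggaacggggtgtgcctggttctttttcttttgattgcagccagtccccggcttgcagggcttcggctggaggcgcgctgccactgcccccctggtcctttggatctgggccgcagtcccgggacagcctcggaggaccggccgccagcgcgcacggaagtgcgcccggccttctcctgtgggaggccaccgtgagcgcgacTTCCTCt
Itgam: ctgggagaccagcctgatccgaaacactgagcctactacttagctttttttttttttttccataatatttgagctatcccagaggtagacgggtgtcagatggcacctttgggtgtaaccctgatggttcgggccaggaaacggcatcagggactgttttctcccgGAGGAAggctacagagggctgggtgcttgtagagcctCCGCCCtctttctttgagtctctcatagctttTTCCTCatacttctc

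The Itgb7 window held 0 matches to the 3 motifs, and the Itgav window held GAGGAA at 2 places. In the Itgam window GAGGAA also stood at 2 places, of which the nearer covers bases -15 to -10 before the start, and GGGCGG at 1. RefSeq windows were matched for 7 of the 10 members. Of these, 4 held GAGGAA (Itga5, Itgam, Itgav and Itgb1), 1 held TGTGGT (Itga4) and 4 held GGGCGG (Itga4, Itga5, Itgam and Itgb1). Over 27025 promoter windows, 23.1% held GAGGAA, 14.2% TGTGGT and 32.7% GGGCGG. A match here describes letters, not binding.

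Genes outside the 10 made up little of the integrin transcripts. The 10 members took 93.5% of the counts of 27 subunit genes in the P2X1-KO-labelled library and 90.4% in the WT-labelled library. Of the 17 other subunits, 8 reached the counting level. Of these, 2 were at least 2-fold higher in the P2X1-KO-labelled library, against 15.5% of all genes, and 1 at least 2-fold lower, against 14.0%. Itga1, a collagen receptor chain, had 172 counts in the P2X1-KO-labelled library and 28 in the WT-labelled library, 10.8-fold higher (7.20 to 16.7). Itgb3 was the other higher gene and Itgad the lower one. Itgb2l, a paralog of Itgb2 known from mouse granulocytes, had 49.2 CPM in the P2X1-KO-labelled library and 33.7 CPM in the WT-labelled library (ratio 1.46, 1.28 to 1.66).

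The ligand genes lay on both sides. Of 31 ligand genes, 13 reached the counting level (median log2 difference 0.47). Of these, 5 were at least 2-fold higher in the P2X1-KO-labelled library, against 15.5% of all genes, and 4 at least 2-fold lower, against 14.0%. Fn1, encoding the fibronectin bound by the Itga5 and Itga4 receptors, had 1848 CPM in the P2X1-KO-labelled library and 181 CPM in the WT-labelled library, 10.2-fold higher (9.82 to 10.6). Spp1, encoding osteopontin, was 5.29-fold higher (4.06 to 6.95). Vcam1, the ligand of VLA-4, had 25.4 CPM in the P2X1-KO-labelled library and 81.9 CPM in the WT-labelled library, 3.22-fold lower (2.79 to 3.72). Icam1, a ligand of LFA-1 and Mac1, had 30.7 CPM in the P2X1-KO-labelled library and 71.3 CPM in the WT-labelled library, 2.32-fold lower (2.03 to 2.66). Icam2, another LFA-1 ligand, was 3.31-fold higher (2.92 to 3.75). Lama5, a laminin chain, was 10.3-fold lower (5.48 to 21.9). Cdh1, encoding the E-cadherin bound by αE, had 23 counts in the P2X1-KO-labelled library and 1 in the WT-labelled library, a ratio of 40.4 (6.56 to 1663).

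Of 27 genes of integrin activation, 23 reached the counting level (median 0.59). Of these, 7 were at least 2-fold higher in the P2X1-KO-labelled library, against 15.5% of all genes, and 1 at least 2-fold lower, against 14.0%. The main leukocyte components were abundant and differed by under 2-fold. Tln1, the talin that binds β tails, had 1427 CPM in the P2X1-KO-labelled library and 937 CPM in the WT-labelled library, and Fermt3, the kindlin of blood cells, 848 CPM in the P2X1-KO-labelled library and 801 CPM in the WT-labelled library. Tln2, the other talin, was 15.7-fold higher (12.7 to 19.5), at 98.4 CPM in the P2X1-KO-labelled library and 6.29 CPM in the WT-labelled library. Rasgrp2, the exchange factor that activates RAP1 in platelets and leukocytes, was 7.37-fold higher (6.13 to 8.91), and Rap1gap, which inactivates RAP1, 8.36-fold higher (5.75 to 12.5). Rapgef1, another exchange factor of RAP1, was 2.15-fold lower (2.02 to 2.30), while Stk4 and Cyth1 were 1.88-fold and 1.42-fold lower.

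Of 37 genes of outside-in signalling and adhesion sites, 31 reached the counting level, 5 at least 2-fold higher in the P2X1-KO-labelled library, a share close to the 15.5% of all genes, and 1 at least 2-fold lower, against 14.0% (median 0.38). Fgr, a SRC family kinase that acts below β2 integrins in myeloid cells, was 6.72-fold higher (6.03 to 7.49). The adaptor genes Tyrobp and Fcer1g, which couple β2 integrins to SYK, were 4.30-fold (4.19 to 4.42) and 3.85-fold higher (3.71 to 3.99). Tns1, a tensin, was 19.0-fold lower (7.99 to 59.4), with 5 counts in the P2X1-KO-labelled library and 167 in the WT-labelled library. Git1 and Git2 were 1.49-fold and 1.33-fold lower.

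**Figure D5:**
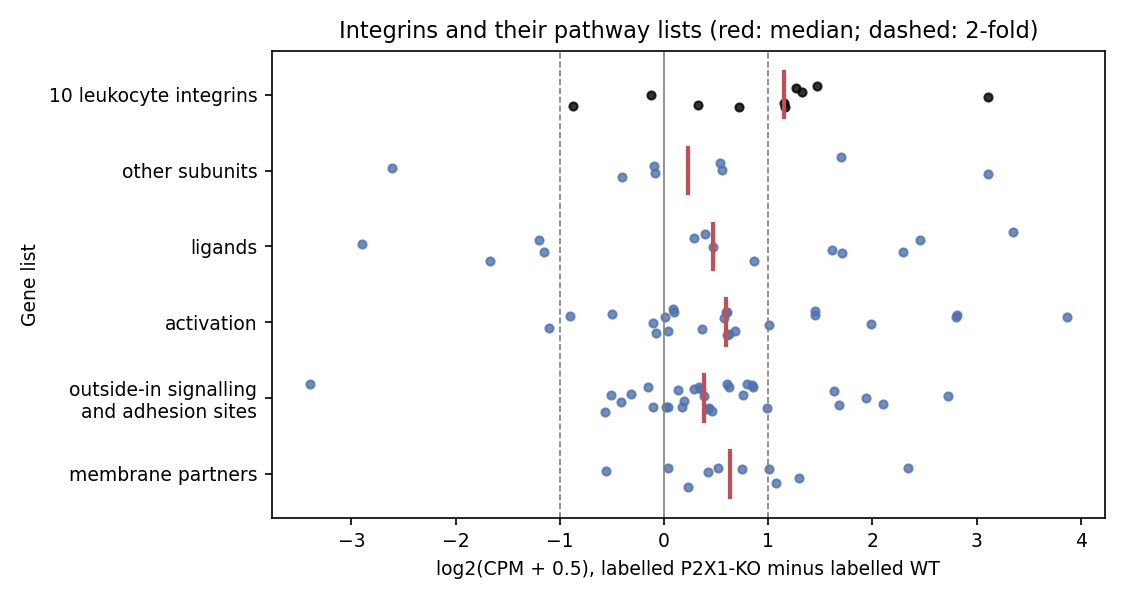
Difference in log2(CPM + 0.5), labelled P2X1-KO minus labelled WT, for each gene at a mean of at least 1 CPM in the integrin family and in 5 related gene lists; red bars are medians and dashed lines mark 2-fold. The integrin median of 1.16 lies right of the list medians, which run from 0.23 to 0.63, and ligands spread to both sides.

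Markers of blood cell types that carry these integrins differed between the libraries as well, and their part in the integrin differences was not tested. In bulk RNA, more cells of a type and more RNA per cell cannot be told apart. For the marker counts that follow, 15.5% of all genes at the counting level were higher by 2-fold or more. The share of all genes lower by as much was 14.0%. No neutrophil, monocyte and macrophage, eosinophil, mast cell and basophil, or B cell and plasma cell marker at that level was so much lower. Neutrophil markers, at least 2-fold higher for 9 of 11, summed to 12935 CPM in the P2X1-KO-labelled library and 3325 CPM in the WT-labelled library. Ly6g went the other way, with 36 counts in the P2X1-KO-labelled library and 109 in the WT-labelled library. Its CPM ratio was 0.580 (0.386 to 0.852). Monocyte and macrophage markers, at least 2-fold higher for 10 of the 11 at the counting level, summed to 5864 CPM in the P2X1-KO-labelled library and 937 CPM in the WT-labelled library. The remaining gene at that level, Ly6c2, was slightly lower in the P2X1-KO-labelled library, with a ratio of 0.909 (0.876 to 0.943). Eosinophil markers, at least 2-fold higher for 3 of the 4 at that level, summed to 232 CPM in the P2X1-KO-labelled library and 19.4 CPM in the WT-labelled library, largely through Prg2 and Siglecf, while Ear1, Il5ra and Ccr3 had 0 counts in both. Mast cell and basophil markers, at least 2-fold higher for 2 of the 4 at that level, summed to 122 CPM in the P2X1-KO-labelled library and 61.0 CPM in the WT-labelled library. Most of that difference was Gata2, at 66.3 CPM in the P2X1-KO-labelled library and 13.8 CPM in the WT-labelled library. Cpa3 was the other one at least 2-fold higher, with 166 counts in the P2X1-KO-labelled library and 1 in the WT-labelled library. Mcpt8 was lower, at 23.0 CPM in the P2X1-KO-labelled library and 34.0 CPM in the WT-labelled library, and Fcer1a, Prss34, Tpsb2 and Cma1 had 0 counts in both. Lymphocytes also carry Itgb7, Itga4 and Itgal, and 7 of 10 T cell markers and 7 of 8 NK cell markers were at 0 in each library. T cell markers summed to 4.28 CPM in the P2X1-KO-labelled library and 2.50 CPM in the WT-labelled library. Cd5 was higher, with 28 counts in the P2X1-KO-labelled library and 5 in the WT-labelled library. Lck was lower, with 2 counts in the P2X1-KO-labelled library and 32 in the WT-labelled library. NK cell markers summed to 0.788 CPM in the P2X1-KO-labelled library and 0.0641 CPM in the WT-labelled library. B cell and plasma cell markers, at least 2-fold higher for 2 of the 4 at that level, summed to 59.3 CPM in the P2X1-KO-labelled library and 27.6 CPM in the WT-labelled library, with Ms4a1, Pax5 and Ebf1 at 0 in both. That difference lay in Cd79b, at 47.4 CPM in the P2X1-KO-labelled library and 14.7 CPM in the WT-labelled library, while Ighm was lower, at 7.66 CPM in the P2X1-KO-labelled library and 10.1 CPM in the WT-labelled library.

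The marker lists of 5 other cell types did not all differ in the same direction. Stromal fibroblast markers summed to 251 CPM in the P2X1-KO-labelled library and 97.2 CPM in the WT-labelled library. Of the 5 at the counting level, 3 were higher and 1 lower by 2-fold or more, against 15.5% and 14.0% of all genes. The 3 higher ones were collagen genes: Col1a1 had 1327 counts in the P2X1-KO-labelled library and 15 in the WT-labelled library, Col1a2 had 213 counts in the P2X1-KO-labelled library and 0 in the WT-labelled library, and Col3a1 had 264 counts in the P2X1-KO-labelled library and 0 in the WT-labelled library. Thy1 was the lower one, with 6 counts in the P2X1-KO-labelled library and 33 in the WT-labelled library. Pdgfrb was also lower but by under 2-fold, at 47.1 CPM in the P2X1-KO-labelled library and 93.1 CPM in the WT-labelled library, and Pdgfra, Dcn and Lum had 0 counts in both. Megakaryocyte and platelet markers summed to 41.0 CPM in the P2X1-KO-labelled library and 10.2 CPM in the WT-labelled library; these sums include the integrin gene Itgb3, and next to it Vwf was the most abundant, at 16.8 CPM in the P2X1-KO-labelled library and 1.99 CPM in the WT-labelled library. Pf4, Ppbp and Gp1ba had 0 counts in both. Dendritic cell markers summed to 76.3 CPM in the P2X1-KO-labelled library and 80.9 CPM in the WT-labelled library, with Cd74 higher (25.6 CPM in the P2X1-KO-labelled library and 5.64 CPM in the WT-labelled library) and Flt3 lower (421 counts in the P2X1-KO-labelled library and 1122 in the WT-labelled library, a CPM ratio of 0.659). H2-Ab1 was also lower, with 3 counts in the P2X1-KO-labelled library and 44 in the WT-labelled library, a CPM ratio of 0.120 (0.0238 to 0.373). Endothelial markers summed to 46.6 CPM in the P2X1-KO-labelled library and 18.9 CPM in the WT-labelled library, largely through Pecam1, and Kdr, Tek and Emcn had 0 counts in both. Erythroid markers were near 0, at 2.14 CPM in the P2X1-KO-labelled library and 0.962 CPM in the WT-labelled library. The part of these lists in the integrin differences was not tested.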

How the data were processed

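The deposited table holds raw read counts for each gene symbol in 1 column per library. Per the submitters' processing notes, alignment used HISAT2 2.0.4 and mm10. The sources used here name no counting tool, annotation or strand setting. Of the table's 46095 entries, 27 were calendar dates in place of symbols; they stayed in the totals.

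Counts were scaled by TMM in edgeR 4.0.16 (R 4.3.3), giving effective library sizes of 8882591 for the P2X1-KO-labelled library and 15591519 for the WT-labelled library. A ratio is CPM in the P2X1-KO-labelled library over the WT-labelled library, with the exact 95% Clopper-Pearson interval given the sum of both counts (scipy 1.17.1). The pseudocount of 0.5 CPM in log2 differences understates those of low genes. No p-value was computed. The deeper library labelled WT has the narrower intervals at a given CPM. Code for ratios and scaling was tested on simulated data. Exon lengths, GC content and coordinates came from GENCODE M21, and upstream sequences from RefSeq (GRCm38.p6). Exon length was known for 92.6% of the genes that averaged 1 CPM or more.

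The members and gene lists were chosen with earlier results of these data known. Genes named were all members, P2rx1 and Kit, up to 3 per direction from each pathway list by the interval bound farthest from 1, and the 2 most abundant of each marker list, printed here for the lists whose sum rests on few genes. Itgae, Itgb5, Itgb6, Itgb8, Madcam1, Icam2, Tln1, Fermt3, Cerkl, Col1a2, Col3a1, Thy1, Cpa3, Ly6g, Ly6c2, H2-Ab1 and markers listed at 0 were named outside that rule, after their values were seen. Flna and Fyb were named in the same way. Alternatives were other scalings, level filters, pseudocounts, and a correction for exon length and then GC content, which centred log2 differences on the median of each of 20 bins.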

Additional observations from a re-analysis of the deposited data

How the results depend on the processing

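No paired analysis was possible because each group had 1 library, and for the same reason no replicate could be left out. Upper-quartile scaling and DESeq2 size factors kept the number of integrins at least 2-fold higher in the P2X1-KO-labelled library at 6 and at least 2-fold lower at 0, as did no level filter and a mean of at least 5 CPM; over all genes these settings gave between 12.1% and 17.5% higher and between 10.6% and 31.6% lower. Scaling by total counts, with or without the 20 most abundant genes, gave 4 higher, 1 lower and 2 with the whole interval above 2-fold, against 12.7%, 19.1% and 8.03% of all genes without those 20; both raise the WT-labelled library relative to TMM. The integrin median log2 difference was 0.98 with total counts, 0.96 without the 20 most abundant genes and 1.34 after the length and GC correction, against 1.16; it was 1.16 with a pseudocount of 0.1 CPM and 1.14 with 2 CPM. Itgb1 reversed, to a ratio of 1.05, after the length and GC correction; the cause was not tested. No other integrin ratio changed sign under the 5 alternatives. The same correction of chain quotients, chosen after seeing the data, turned Itgal per Itgb2 to 1.03 and moved Itgam per Itgb2 to 0.739, Itgb1 per Itgb2 to 0.419, Itga4 per Itgb1 to 2.98, Itga4 per Itgb7 to 0.385, Itga4 per Itga5 to 2.35, Itgav per Itgb1 to 0.738 and Itgb7 per Itgb1 to 7.76; the cause was not tested. Over the 85 pathway genes at the counting level, 20 to 24 were at least 2-fold higher and 7 to 8 at least 2-fold lower across scalings, against 23 and 7. Among all genes the scalings gave between 12.7% and 17.3% higher and between 12.3% and 19.1% lower. Depth limits Itgax and Itgav most, each with 147 counts in the P2X1-KO-labelled library.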

Other observations

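Of 11 genes of proteins that sit beside integrins in the membrane, 10 were at a mean of at least 1 CPM (median log2 difference 0.63). Of these, 4 were at least 2-fold higher in the P2X1-KO-labelled library, against 15.5% of all genes, and 0 at least 2-fold lower, against 14.0%. Cd9, a tetraspanin that associates with β1 integrins, had 74.3 CPM in the P2X1-KO-labelled library and 14.3 CPM in the WT-labelled library, 5.20-fold higher (4.46 to 6.07). Plaur, encoding the urokinase receptor that binds Mac1, was 2.47-fold higher (2.26 to 2.71), and Cd81, another tetraspanin, 2.11-fold higher (1.92 to 2.32). Slc3a2, encoding the CD98 heavy chain that binds β tails, was 1.47-fold lower (1.37 to 1.57).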
